A study of Mus musculus with 14 samples.

Results

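The genes described here are the mouse DNA methyltransferase family and the proteins that guide it: Dnmt1, Dnmt3a, Dnmt3b and Dnmt3l, with Uhrf1, Uhrf2 and Hells. They were followed in primordial germ cells, from which eggs and sperm later arise. All 7 genes were represented on the expression array, by 18 of its 45101 probe sets. A probe set, a group of short probes designed against one transcript, was taken when the array annotation listed one of these symbols and no other. Dnmt3a had 5 probe sets, Dnmt1 and Hells 3 each, Dnmt3b, Uhrf1 and Uhrf2 2 each, and Dnmt3l 1. In build GRCm38.p6, Dnmt1 lies at chr9:20907206-20959888, Uhrf1 at chr17:56303337-56323486, Uhrf2 at chr19:30030430-30093726 and Hells at chr19:38930262-38970470. Dnmt3a lies at chr12:3801559-3914443, Dnmt3b at chr2:153649411-153687730 and Dnmt3l at chr10:78042287-78063622. The files do not place the probe sets within exons or UTRs.

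The study held 14 arrays in 7 groups of 2 biological replicates: germ cells of embryonic day (E) 9.5, E10.5 and E11.5, which were not sexed, males and females of E12.5, and males and females of E13.5. Cells of E10.5 to E13.5 carried a stella-EGFP transgene from fathers of B6/CBA background mated with BDF1 mothers, and were sorted from genital ridges on its green fluorescence. Their cDNA was amplified with 12 PCR cycles from 5 ng of RNA, given as that of 500 cells. Arrays of E9.5 were taken over from previous work on C57BL/6 embryos, used another RNA kit and 22 cycles, and carry no reporter or sort in their labels. Age cannot be told apart from these differences at E9.5. The labels do not say whether replicates came from separate litters, so p-values measure the spread between these samples.

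DNA methylation in mammals sits mostly on cytosines followed by guanine. After replication the new strand lacks it. Uhrf1 binds such half-methylated sites and recruits Dnmt1, the maintenance enzyme, which copies the mark. Hells (also called Lsh) is a chromatin remodeller of the SNF2 family that methylation of repeats depends on. Dnmt3a and Dnmt3b place new marks, and Dnmt3l, which has no catalytic activity of its own, stimulates them. Germ cells of these days lose most of their methylation, and the title of the series names its passive dilution through replication. RNA levels of the maintenance genes relate to that question, but these arrays did not measure protein, enzyme activity or methylation.

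Values are log2 signals, so a difference of 1 is a doubling. The array medians lay between 4.66 and 4.8, and a probe set below 4.72, the median of the whole table, is called dim. Replicates correlated with r between 0.95 and 0.971 across probe sets. Germ cell markers were present as labelled: of 9 measured, 9 lay above the table median in each group from E10.5 on and 8 at E9.5, where Dazl was dim. The Gapdh 3' minus 5' signal, a measure of RNA integrity, was 3.16 in E13.5 male replicate 2 and 3.09 in E13.5 female replicate 2, and at most 2.53 elsewhere.

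Among the 7 genes, Hells alone passed the test in any of 11 comparisons. It was higher at E13.5 than at E10.5 by 1 of its probe sets in males and by 2 in females. These passes were 5.56% of the 18 probe sets in males and 11.1% in females. Of all tested probe sets 7.07% and 10.0% passed, so the members' shares were near the background. Dnmt1 and the main probe set of Uhrf2 were bright in all 14 arrays and passed nowhere. The brighter Uhrf1 probe set had its 2 lowest arrays at E10.5 and E11.5. Dnmt3a lay above the table median in all 5 probe sets, Dnmt3b moved between E11.5 and E13.5 in 1 of its probe sets without passing, and Dnmt3l was dim in every array.

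The start region of Hells is printed because Hells is the gene that passed, with short stretches of Dnmt1 and Uhrf1, the maintenance pair, to compare. Sequences are from RefSeq, mouse build GRCm38.p6, which listed start sites for all 7 genes, and each window runs from 250 bases before a start to 50 after it. Capitals mark the letters TTTNNCGC on either strand, a form of the site bound by E2F factors, which act at genes of DNA synthesis. This motif was chosen after the sequences had been read.
Hells, chr19:38930740-38931039, plus strand: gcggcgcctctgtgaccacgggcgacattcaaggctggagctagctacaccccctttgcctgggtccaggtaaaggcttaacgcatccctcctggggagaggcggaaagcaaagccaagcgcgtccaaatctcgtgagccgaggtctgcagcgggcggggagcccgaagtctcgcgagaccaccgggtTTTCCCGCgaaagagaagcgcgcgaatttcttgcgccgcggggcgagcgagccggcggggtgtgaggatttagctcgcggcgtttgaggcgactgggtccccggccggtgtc
Dnmt1, start 3 of those listed, chr9:20952819-20952858, minus strand: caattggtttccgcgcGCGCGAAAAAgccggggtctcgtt
Uhrf1, start 2 of those listed, chr17:56304112-56304151, plus strand: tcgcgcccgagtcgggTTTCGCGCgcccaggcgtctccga

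The Hells window held 1 match, the Dnmt1 window of start 3 held 3, of which 2 overlap in the run of capitals shown, and each of the 2 Uhrf1 windows held 1. The windows of Dnmt3a, Dnmt3b, Dnmt3l and Uhrf2, and the other 2 of Dnmt1, held none. Of 32851 start windows in the table, 5.17% held at least 1 match. CG pairs, the sites these enzymes act on, numbered 34 in the Hells window and 33 in each of the 300-base windows that the Dnmt1 and Uhrf1 stretches were taken from. The other Uhrf1 window held 12, and the other 2 of Dnmt1 held 2 and 12. Without a motif match, the Dnmt3a windows held 46, 47 and 18, that of Dnmt3b 30 and that of Uhrf2 28. High CG counts thus did not set the windows with a match apart. The 3 windows of Dnmt3l held 6, 4 and 3, against a median of 7 over all windows. The motif itself holds a CG pair, and the share of 5.17% was not matched for the number of CG pairs. These are descriptions of letters, and binding was not measured.

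Hells had 2 bright probe sets, and in both the E13.5 arrays read highest. Probe set 1417541_at read 11.01 and 11.69 at E9.5, 11.11 and 11.97 at E10.5, 11.41 and 12.00 at E11.5, 11.77 and 12.00 for E12.5 males, 12.36 and 12.30 for E12.5 females, 12.38 and 12.44 for E13.5 males, 12.87 and 12.62 for E13.5 females. The arrays of E13.5 and of E12.5 females lay above every array of E9.5, E10.5 and E11.5, while E12.5 males overlapped E11.5. Probe set 1430139_at read 7.38 and 7.61 at E9.5, 7.29 and 7.96 at E10.5, 7.80 and 7.78 at E11.5, 8.43 and 8.12 for E12.5 males, 8.48 and 8.24 for E12.5 females, 9.0 and 9.41 for E13.5 males, 9.0 and 8.80 for E13.5 females. Here all arrays of E12.5 stood above those of E9.5 to E11.5, and all arrays of E13.5 above those of E12.5. Separation of a single pair of groups is common with 2 arrays per group. Over the compared pairs of groups, 29.7% (E11.5 against E10.5) to 44.5% (E12.5 males against females) of all probe sets did not overlap. The share of all probe sets with an order across several groups, as described here, was not computed. The remaining probe set, 1453361_at, was dim in all 14 arrays, between 1.53 and 4.58.

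**Figure D1:**
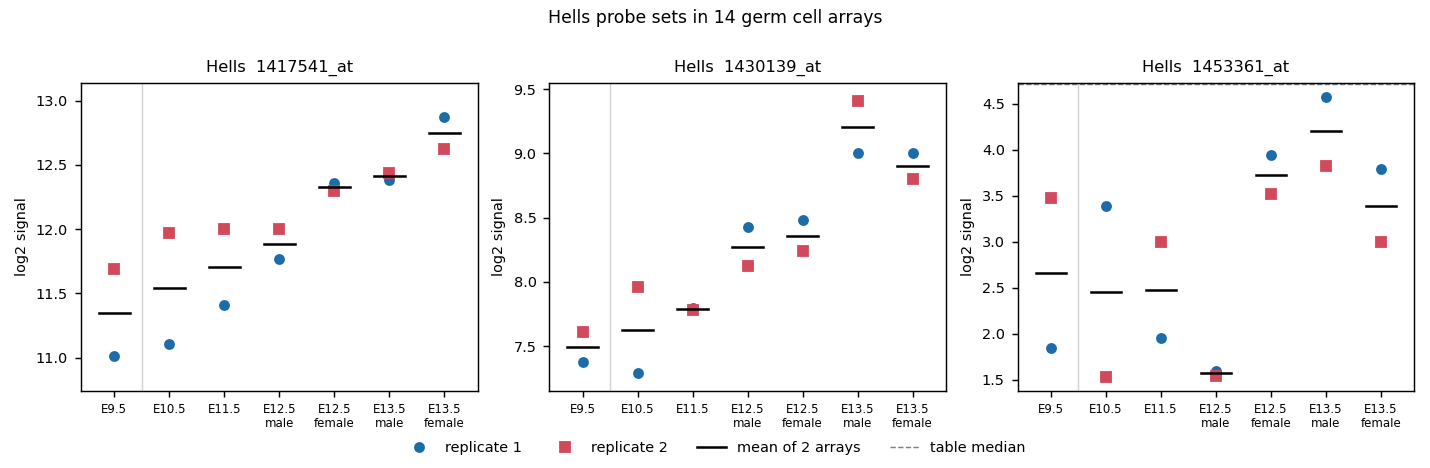
Log2 signal of the 3 Hells probe sets (vertical axis) in the 7 groups (horizontal axis), with both replicates as points and their mean as a bar. The E13.5 arrays of 1417541_at sit between 12.38 and 12.87 and those of 1430139_at between 8.80 and 9.41, above the E10.5 arrays in both. A vertical line sets off E9.5, which came from another study, and vertical scales differ between panels.

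In E13.5 males against E10.5, Hells 1430139_at averaged 9.21 ± 0.29 in males and 7.62 ± 0.47 at E10.5 (SD, n = 2 each), a rise of 1.58 (2.99-fold, 95% interval 1.01 to 2.15, limma adjusted p = 0.00383). Hells 1417541_at differed by 0.87 (0.26 to 1.48) and did not pass (adjusted p = 0.0983). In E13.5 females against E10.5, 1430139_at averaged 8.90 ± 0.14 in females against 7.62 ± 0.47 at E10.5. It rose by 1.27 (2.42-fold, 0.71 to 1.84, limma adjusted p = 0.00936). Hells 1417541_at averaged 12.74 ± 0.18 in those females and 11.54 ± 0.61 at E10.5, and rose by 1.21 (2.31-fold, 0.59 to 1.82, limma adjusted p = 0.0191). Both comparisons share the E10.5 arrays. In bulk samples, fewer cells of a type and less RNA per cell cannot be told apart.

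The 18 probe sets gave 1 pass for E13.5 males, or 5.56%, where 7.07% of all 45037 tested probe sets passed. For E13.5 females they gave 2, or 11.1%, against 10.0% of all. Both shares are near the background. Dropping E13.5 female replicate 1 left 0 passes in females, and dropping replicate 2 of that group left 1. Dropping E10.5 replicate 1 gave 3 passes in males, Hells 1430139_at, Hells 1453361_at and Uhrf1 1415810_at. In females it kept the count at 2, with Uhrf1 1415810_at in place of Hells 1417541_at, whose difference was then 0.78 and did not pass. Dropping E10.5 replicate 2 also gave 3 in males, Hells 1430139_at, Hells 1417541_at (a difference of 1.3) and Dnmt3l. With 1 array left in a group, the fit assumes that it varies as the other groups do. With both E13.5 replicate 2 arrays left out, which were the 2 of high Gapdh difference, it was 0 in each sex, and Hells 1430139_at then differed by 1.38 in males and 1.38 in females. With the Gapdh difference as a covariate, Hells 1417541_at no longer passed in females (1.02, adjusted p = 0.082), Dnmt3b 1449052_a_at passed there (1.76, adjusted p = 0.0174), and Hells 1430139_at passed in both sexes.

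Markers of other cells moved over the same days. Summed signals (log2 of the summed linear values) of 8 measured blood genes lay between 6.93 and 8.98 in E13.5 males and 7.11 and 8.65 in E13.5 females, against 11.31 and 11.73 at E10.5. Hba-a1 was at 0 in at least 1 array of every group, and Hba-x, an embryonic globin, averaged 4.42 for males and 4.38 for females of E13.5, against 9.38 at E10.5. For 10 gonadal somatic genes the sums were 9.65 to 9.91 in E13.5 males and 10.68 to 10.88 in E13.5 females, against 11.17 to 11.79 at E10.5. For 8 supporting cell genes they were 10.28 to 10.40 and 9.13 to 9.32, against 8.20 to 8.24. For 8 endothelial genes they were 8.55 to 8.69 and 8.53 to 8.54, against 9.34 to 9.84. Of these lists, the supporting cell list alone had a higher sum at E13.5. In each sex 2 of its 8 genes passed against E10.5. Rspo1 averaged 8.9 (males) and 7.8 (females) against 4.8, Cst9 8.8 against 1.4 in males, and Wnt4 7.4 against 6.2 in females. The dim Sox9 averaged lower, at 2.6 (males) and 3.1 (females) against 3.3. Of the gonadal somatic genes, 3 passed as lower in males, 2 as lower in females and 0 as higher, while Gata4 averaged 6.0 in males against 5.1. Vim gave the highest signal of this list in every group, so it weighed most in the list's sums. At E13.5 Vim averaged 8.9 (males) against 10.5 (females), and passed as lower in males. The list's median male minus female difference at E13.5 was 0.34, against -0.02 over all genes. Its sign is opposite to the order of the sums. As lower in each sex, 3 endothelial and 2 blood genes passed. Germ cell markers also moved: 2 of 9 passed as higher and 1 as lower in males, and 2 and 4 in females. The shares over all genes were 6.16% higher and 4.32% lower in males, and 9.81% and 5.10% in females. The part of any list in the Hells result was not tested.

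Over single days Hells did not pass. From E12.5 to E13.5, 1430139_at was higher by 0.93 in males (0.36 to 1.5, adjusted p = 0.161) and by 0.54 in females (-0.03 to 1.11, adjusted p = 0.483). Between the sexes at E13.5, the male minus female difference was 0.30 (-0.26 to 0.87) for 1430139_at and -0.34 (-0.95 to 0.28) for 1417541_at. The bright probe sets thus pointed opposite ways, each within its interval. The dim 1453361_at read 1.60 and 1.54 in E12.5 males against 3.94 and 3.52 in E12.5 females, a male minus female difference of -2.16 (-3.60 to -0.72, adjusted p = 0.212). By E13.5 this probe set was at 4.58 and 3.83 in males and 3.79 and 3.0 in females, and the change of its sex difference did not pass (2.97, 0.93 to 5.01, adjusted p = 0.593).

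Dnmt1, the maintenance enzyme, was bright throughout. Probe set 1422946_a_at read 12.17 and 12.23 at E9.5, 12.23 and 11.62 at E10.5, 12.26 and 11.67 at E11.5, 12.35 and 12.21 for E12.5 males, 12.39 and 12.40 for E12.5 females, 11.91 and 11.97 for E13.5 males, 12.45 and 12.22 for E13.5 females. Its group means spanned 0.47, from 11.93 at E10.5 to 12.39 in E12.5 females, and every neighbouring pair in the order of the means overlapped. The low arrays were replicate 2 of E10.5 and of E11.5, and both E13.5 male arrays. Probe sets 1435122_x_at and 1447877_x_at, whose suffix marks probes that may also match related sequences, lay between 10.38 and 11.48 and between 9.47 and 10.56. All 3 probe sets had their lowest mean at E10.5 and their highest in E12.5 females.

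**Figure D2:**
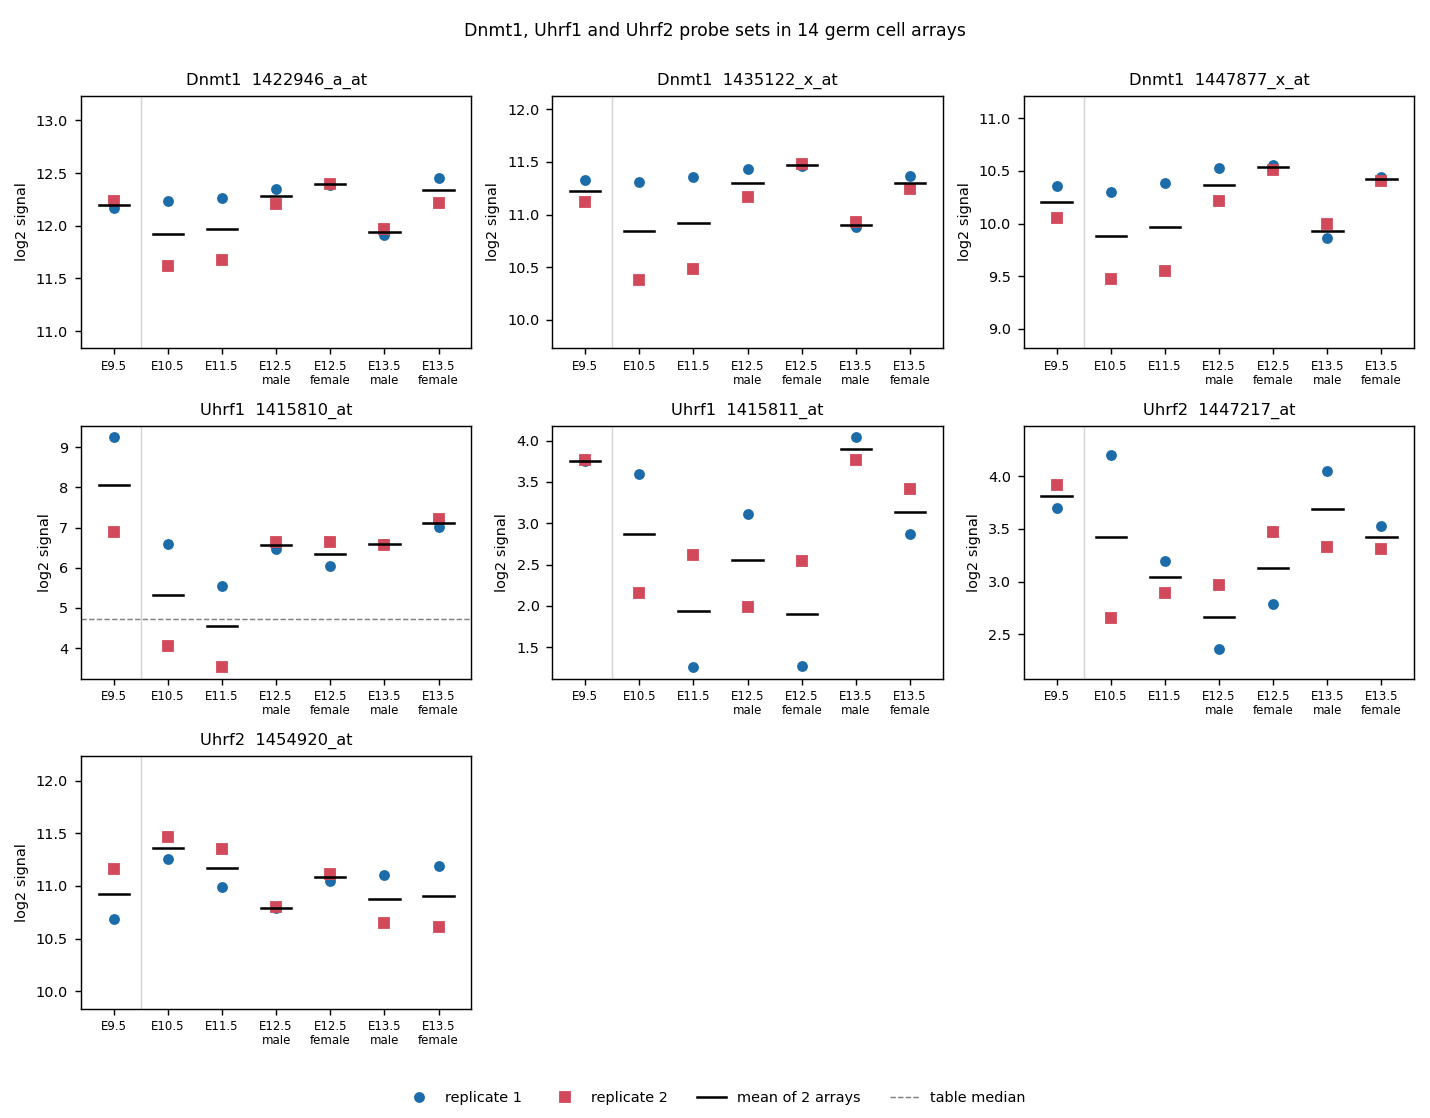
Log2 signal (vertical axis) of the Dnmt1, Uhrf1 and Uhrf2 probe sets in the 7 groups (horizontal axis), with both replicates as points, their mean as a bar and the table median of 4.72 dashed where it is in range. Replicate 2 of E10.5 and of E11.5 lies below replicate 1 in all 3 Dnmt1 panels and in Uhrf1 1415810_at. Vertical scales differ between panels.

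Dnmt1 intervals bound the size of any change. In E13.5 males against E10.5, 1422946_a_at differed by 0.01 (95% interval -0.51 to 0.54), 1435122_x_at by 0.06 (-0.65 to 0.77) and 1447877_x_at by 0.05 (-0.63 to 0.72). The E13.5 females were higher than E10.5 by 0.41 (-0.12 to 0.94), 0.46 (-0.25 to 1.17) and 0.54 (-0.14 to 1.21) in the same order. A doubling or halving lay outside the interval of 1422946_a_at in each of the 11 comparisons except the change of the sex difference, whose interval ran from -1.03 to 0.47. The other 2 probe sets did not give this bound: for E12.5 females against E11.5 their intervals reached 1.26 and 1.24. All intervals use a spread shared by the groups, while Dnmt1 replicates differed most at E10.5 and E11.5. At E13.5 all 3 Dnmt1 probe sets read lower in both males than in both females, by -0.40 (-0.92 to 0.13), -0.40 (-1.11 to 0.31) and -0.49 (-1.17 to 0.19), and none passed (adjusted p between 0.494 and 0.647). Of all probe sets, 43.3% did not overlap between these groups. The 3 probe sets measure the same RNA and are not independent.

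Uhrf1, which recruits Dnmt1 to replicated DNA, differed widely between replicates up to E11.5. Probe set 1415810_at read 9.25 and 6.89 at E9.5, 6.59 and 4.06 at E10.5, 5.55 and 3.53 at E11.5, 6.47 and 6.64 for E12.5 males, 6.05 and 6.63 for E12.5 females, 6.60 and 6.57 for E13.5 males, 7.01 and 7.22 for E13.5 females. The 2 values below the table median were replicate 2 of E10.5 and of E11.5, and the highest was E9.5 replicate 1. The E11.5 mean, 4.54 ± 1.43, was the lowest of the 7 groups, and overlapped the mean next to it, 5.33 ± 1.79 at E10.5. The other probe set, 1415811_at, was dim in all arrays, between 1.26 and 4.04.

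Against E11.5, Uhrf1 1415810_at was 2.01 higher in E12.5 males (0.35 to 3.68, limma adjusted p = 0.519) and 1.80 higher in E12.5 females (0.13 to 3.47, adjusted p = 0.436). Both E11.5 arrays lay below all 4 arrays of E12.5. Of all probe sets, 37.8% did not overlap between E11.5 and E12.5 males, and 42.6% between E11.5 and E12.5 females. The E13.5 females were 1.79 higher than E10.5 (0.12 to 3.46, adjusted p = 0.194), and the E13.5 males 1.26 higher (-0.41 to 2.93, adjusted p = 0.425). At E10.5 the signal was 2.75 lower than at E9.5 (-4.64 to -0.85 as a difference, adjusted p = 0.255). None of these passed as fitted. Without E10.5 replicate 1, Uhrf1 passed in 3 comparisons, with 3.06 for E13.5 females and 2.53 for E13.5 males against E10.5, and -4.01 for E10.5 against E9.5 (adjusted p = 0.0153, 0.0404 and 0.0304). E10.5 was then a single array, and its spread was taken from the other groups. Without E10.5 replicate 2 the first 2 of these differences were 0.52 and -0.01, so 1 array decided the size of each.

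The replicates of E10.5 and E11.5 differed in the same direction for several members. Replicate 2 minus replicate 1 of Uhrf1 1415810_at was -2.53 at E10.5 and -2.02 at E11.5, larger in size than in 98.8% and 99.4% of the 22216 probe sets above the table median. For the 3 Dnmt1 probe sets it lay between -0.93 and -0.61 at E10.5 and between -0.88 and -0.59 at E11.5, within the range that holds 90% of those probe sets. Hells 1417541_at went the other way, by 0.86 and 0.59. Dnmt3b 1449052_a_at was lower in replicate 2 by -0.83 and -1.77. Across probe sets above the table median, these replicate differences correlated with r = 0.556 between E10.5 and E11.5, which describes shared deviation of the arrays. The Gapdh difference was 0.44 and 1.38 in replicates 1 and 2 of E10.5, and 1.18 and 2.53 at E11.5. In E13.5, where replicate 2 had the higher Gapdh differences, the Dnmt1 gaps lay between -0.23 and 0.14. There the gap of Uhrf1 1415810_at was -0.03 in males and 0.21 in females. For Dnmt3b 1449052_a_at it was -0.93 in males and -0.72 in females, and for Hells 1417541_at 0.06 and -0.25. The part of the Gapdh difference in any of these gaps was not tested.

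**Figure D3:**
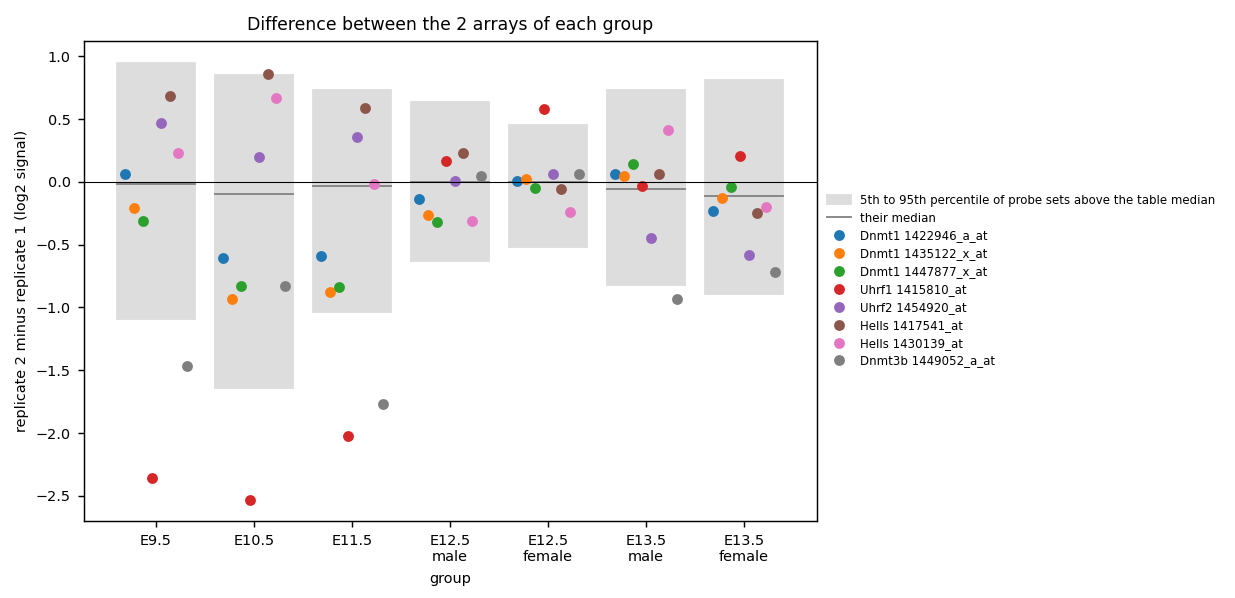
Replicate 2 minus replicate 1 on the log2 scale (vertical axis) for 8 bright member probe sets in the 7 groups (horizontal axis), over a grey box that runs from the 5th to the 95th percentile of the 22216 probe sets above the table median. Uhrf1 falls below the box at E9.5, E10.5 and E11.5, and Dnmt3b 1449052_a_at at E9.5, E11.5 and in E13.5 males.

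Uhrf2, the paralogue of Uhrf1, was bright in 1454920_at and dim in 1447217_at, which lay between 2.36 and 4.20. Probe set 1454920_at read 10.69 and 11.16 at E9.5, 11.26 and 11.46 at E10.5, 10.99 and 11.35 at E11.5, 10.79 and 10.80 for E12.5 males, 11.05 and 11.11 for E12.5 females, 11.10 and 10.65 for E13.5 males, 11.19 and 10.61 for E13.5 females. Its highest mean was at E10.5, and neighbouring means in the order overlapped throughout. The difference from E10.5 was -0.48 in E13.5 males (-1.0 to 0.03, adjusted p = 0.298) and -0.46 in E13.5 females (-0.98 to 0.06, adjusted p = 0.298). No E13.5 array reached the E10.5 arrays. Of all probe sets, 42.6% did not overlap between E13.5 males and E10.5, and 43.7% between E13.5 females and E10.5.

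Of the enzymes that place new marks, Dnmt3a had 5 probe sets, all above the table median in every array. Its brightest probe set, 1423064_at, read 8.40 and 8.25 at E9.5, 8.14 and 8.18 at E10.5, 8.06 and 7.78 at E11.5, 8.41 and 8.17 for E12.5 males, 8.03 and 8.04 for E12.5 females, 8.44 and 8.33 for E13.5 males, 8.03 and 7.60 for E13.5 females. Males stood above females at both ages, by 0.57 at E13.5 (0.11 to 1.03, limma adjusted p = 0.19) and by 0.26 at E12.5 (-0.21 to 0.72, adjusted p = 0.819). The other 4 probe sets did not show this sex difference alike: at E13.5 it was -0.46 for 1423063_at (-1.16 to 0.25), -0.02 for 1423065_at, 0.39 for 1423066_at and -0.14 for 1460324_at. They ranged from 5.49 to 7.50 over the 14 arrays. Dnmt3a has a long and a short isoform from separate promoters, and the files give no probe positions to set them apart.

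**Figure D4:**
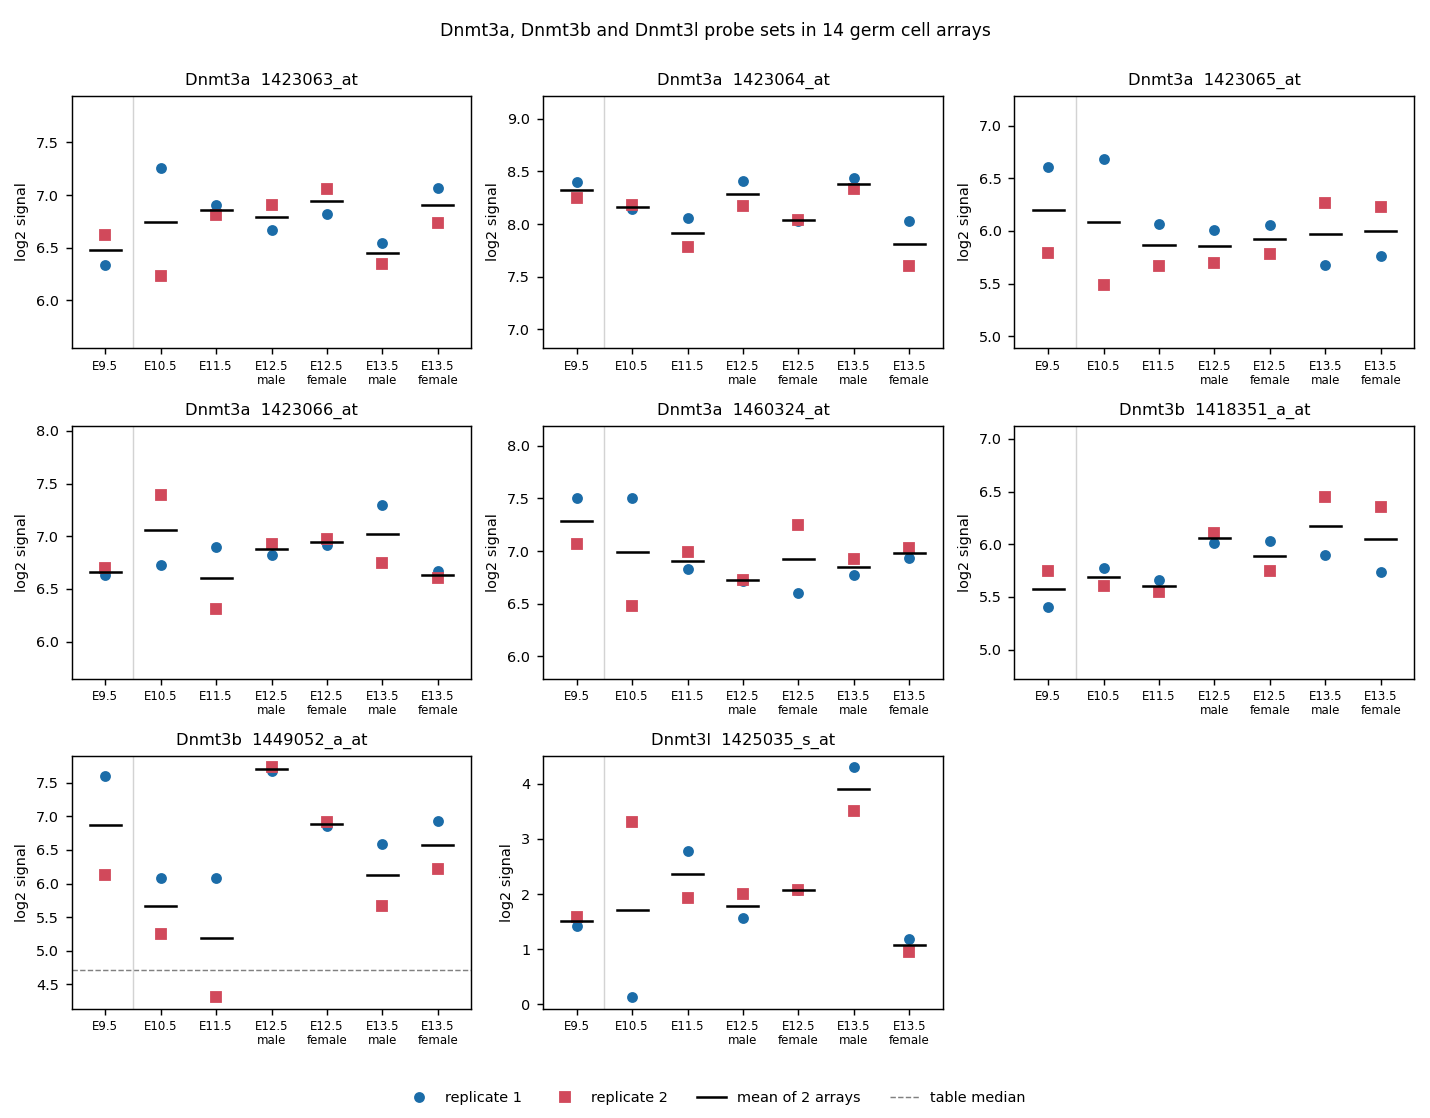
Log2 signal (vertical axis) of the Dnmt3a, Dnmt3b and Dnmt3l probe sets in the 7 groups (horizontal axis), with both replicates as points and their mean as a bar. Dnmt3b 1449052_a_at peaks in E12.5 males at 7.68 and 7.73, and Dnmt3l is highest in E13.5 males at 4.30 and 3.51, below the table median of 4.72. Vertical scales differ between panels.

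Dnmt3b gave different patterns in its 2 probe sets. Probe set 1449052_a_at read 7.60 and 6.13 at E9.5, 6.08 and 5.25 at E10.5, 6.08 and 4.31 at E11.5, 7.68 and 7.73 for E12.5 males, 6.86 and 6.92 for E12.5 females, 6.59 and 5.66 for E13.5 males, 6.93 and 6.21 for E13.5 females. Both E12.5 male arrays lay above all 12 other arrays, of which E9.5 replicate 1, at 7.60, was the nearest. Among all probe sets, 37.8% did not overlap between E12.5 males and E11.5, and 44.5% between the sexes of E12.5. The share with 1 group above all 12 other arrays was not computed. Against E11.5, 1449052_a_at differed by 2.51 in E12.5 males (1.32 to 3.70, limma adjusted p = 0.122) and by 1.70 in E12.5 females (0.50 to 2.89, adjusted p = 0.252). The E13.5 males differed from E12.5 males by -1.58 (-2.77 to -0.39, adjusted p = 0.276), which did not pass. Probe set 1418351_a_at stayed between 5.40 and 6.45 in all arrays, and for it the E12.5 male difference from E11.5 was 0.46 (-0.19 to 1.10).

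Dnmt3l, the stimulating partner, was dim in all 14 arrays of 1425035_s_at, a probe set whose suffix marks transcripts shared between genes or variants. It read 1.42 and 1.59 at E9.5, 0.13 and 3.30 at E10.5, 2.79 and 1.93 at E11.5, 1.57 and 2.01 for E12.5 males, 2.07 and 2.08 for E12.5 females, 4.30 and 3.51 for E13.5 males, 1.19 and 0.95 for E13.5 females. E13.5 males were the highest group and E13.5 females the lowest, a male minus female difference of 2.84 (0.91 to 4.76, limma adjusted p = 0.108). This sex difference grew from E12.5 by 3.12 (0.39 to 5.85), and did not pass (adjusted p = 0.77). Against E10.5, E13.5 males differed by 2.19 (0.26 to 4.12, adjusted p = 0.194), and by 3.77 without E10.5 replicate 2 (adjusted p = 0.011), which left the 0.13 of replicate 1 as the one E10.5 value. Below the table median such a value is no measure of a fold in RNA.

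**Figure D5:**
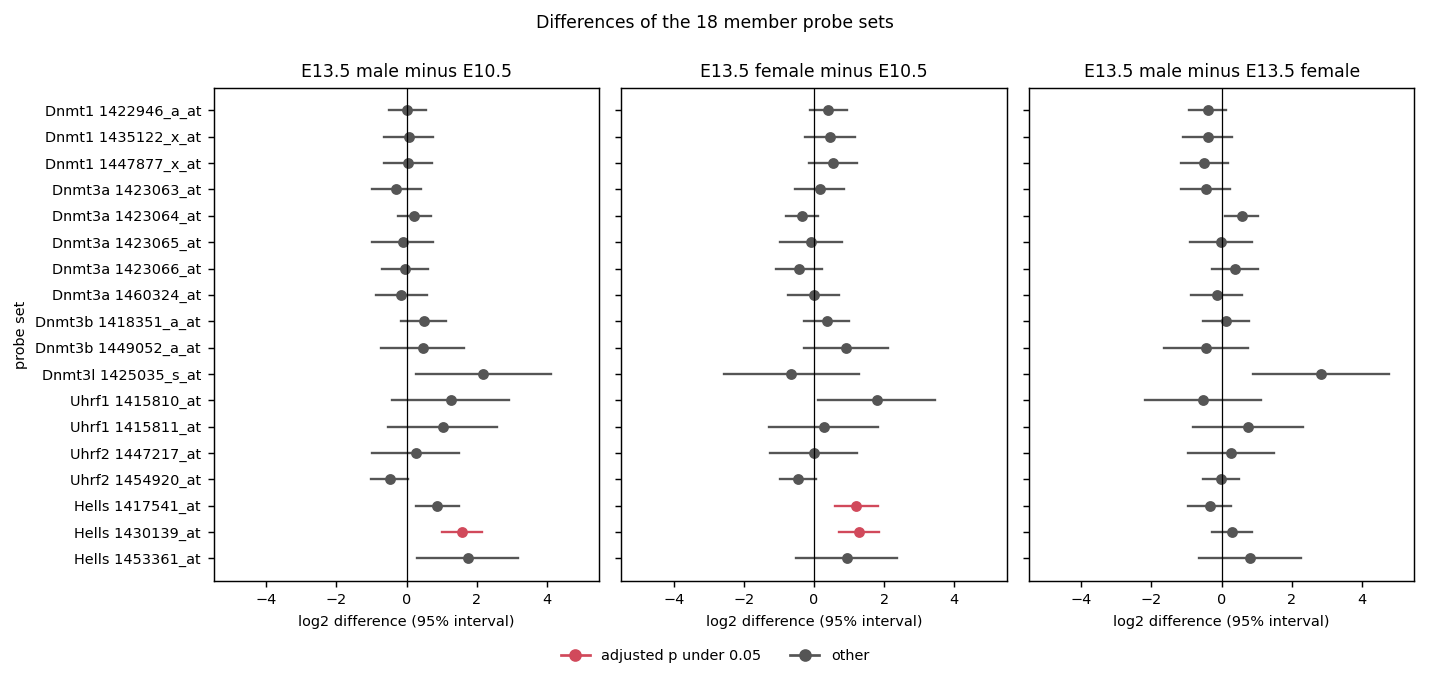
Log2 differences with 95% limma intervals (horizontal axis) for the 18 probe sets (vertical axis), for E13.5 males minus E10.5, E13.5 females minus E10.5, and E13.5 males minus E13.5 females. The 3 red values, Hells 1430139_at in the first 2 panels and Hells 1417541_at in the second, had adjusted p-values under 0.05.

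In the remaining comparisons 0 of the 18 probe sets passed with limma. For E11.5 against E10.5, 0.0466% of all probe sets passed, and an unadjusted p under 0.05 was found for 0 members and 6.13% of all. For E12.5 males against E11.5, 0.262% of all passed, and 2 members and 7.48% of all had such an unadjusted p. For E12.5 females against E11.5, 0.708% passed, and 4 members and 10.3% of all had one. For E13.5 against E12.5, 0.733% passed in males, with an unadjusted p under 0.05 for 4 members and 4957 of all 45037. In females 0.431% passed, with 0 members and 4961 of all. Between the sexes of E12.5, 1.02% passed, with 1 member and 9.69% of all at an unadjusted p under 0.05. For those of E13.5, 4.91% passed, with 2 members and 16.0% of all. For the change of the sex difference 0 of all probe sets passed, while 2 members and 6.03% of all had an unadjusted p under 0.05. For E10.5 against E9.5, 0.402% passed, with 1 member and 12.5% of all.

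Other genes of the pathway were counted with 1 probe set each. Of 13 partners of maintenance and imprint protection, 2 rose in E13.5 males against E10.5: Ehmt2, a histone methyltransferase, by 0.91, and Dmap1, a Dnmt1-binding protein, by 0.77. In E13.5 females Ehmt1 rose by 1.25 and Dmap1 by 1.12, and Cdca7, the partner of Hells in remodelling, fell to 10.02 in those females, against 11.26 at E10.5. Of 7 measured methyl-CpG binding proteins, Mbd3, a NuRD subunit, fell in both sexes, by 0.65 in males and 0.98 in females, and Zbtb33 (Kaiso) rose by 1.25 in females. Of 11 measured genes of methyl donor supply, none passed in males, while in females Bhmt, a betaine methyltransferase, rose by 1.45 and Shmt2, a mitochondrial serine enzyme, fell by 1.26. Of all genes, 6.16% rose and 4.32% fell in males, and 9.81% rose and 5.10% fell in females.

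The 17 measured replication genes gave 1 pass in these 2 comparisons. In E13.5 males against E10.5, Cdt1, a licensing factor, fell by 0.59 and the list's median difference was -0.23, against 0.07 over all genes. In E13.5 females none passed and the median was 0.01, against 0.08 over all genes. The 7 methylation genes had medians of 0.46 in males and 0.41 in females. These are the values of Dnmt3b 1449052_a_at and Dnmt1 1422946_a_at, which did not pass. Over the 18 probe sets the medians were 0.245 in males and 0.315 in females, against 0.04 and 0.045 over all probe sets. Whether the 7 genes moved as a group was not tested. Between the sexes, Bhmt was lower in males by -1.31 at E12.5 and by -1.55 at E13.5, and Shmt2 was higher in males by 1.90 at E13.5. Of all genes, 1.66% passed between the sexes of E12.5 and 7.96% between those of E13.5. In the other comparisons none of these 4 lists had a passing gene, where of all genes 0.0660% passed for E11.5 against E10.5, 0.511% and 1.12% for E12.5 males and females against E11.5, 1.25% and 0.770% for E13.5 against E12.5 males and females, 0 for the change of the sex difference, and 0.693% for E10.5 against E9.5.

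Over the 14 arrays, the genes most like each member among 12099 with a mean above the table median were ranked by Pearson's r. This is a description, since all values share arrays and their normalization. Hells was nearest to Fam214a (0.969), 0610010F05Rik (0.965) and Zmym4 (0.964). Dnmt1 was nearest to Ube2a (0.956), Zfp346 (0.95) and Ndufb11 (0.95). Uhrf1 was nearest to Rpl14 (0.96), Pigu (0.943) and Bloc1s6 (0.934), and Uhrf2 to Ist1 (0.95), Orc6 (0.94) and Cypt3 (0.938). Dnmt3a was nearest to Fibp (0.889), Tctn3 (0.882) and Timm44 (0.853), Dnmt3b to Csnk1e (0.957), Bckdhb (0.899) and Prmt7 (0.893), and the dim Dnmt3l to Rbm20 (0.918), Ccdc186 (0.85) and Washc2 (0.845). No member was among the 3 nearest of another. Within the set, Uhrf1 and Dnmt3b were the most alike (0.737), followed by Dnmt1 and Dnmt3b (0.72) and Dnmt1 and Uhrf1 (0.605), all of which were low in replicate 2 of E10.5 and of E11.5. Hells had 0.045 with Dnmt1 and -0.149 with Uhrf1.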

How the data were processed

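Biotin-labelled cRNA from PCR-amplified cDNA was hybridized to Affymetrix arrays, per the labels' protocols. The deposited values are log2 signals that the authors normalized jointly, E9.5 included, per the series' design text. That they are log2 was taken from their range, 0 to 14.04. The software was not given in the sources used here. Control probe sets (64) were left out. A linear model (limma 3.58.1, R 4.3.3) with a mean for each group and trended variance moderation was run over the other 45037 probe sets, on the 12 arrays of E10.5 to E13.5 (6 residual degrees of freedom) or, for E10.5 against E9.5, on all 14 (7). Benjamini-Hochberg adjustment of the two-sided p-values covered all probe sets of each of the 11 comparisons, and a probe set passed under 0.05. The number of arrays limits the precision. The code of the fit was run on simulated data with independent residuals and the same spread in all groups. That simulation did not cover deviations shared between arrays or a spread that differs between groups. Genes of other lists, and those that the members were likened to, were represented by their probe set of highest mean, and listed genes are named where they passed. Other settings were other normalizations, filters, moderation, weights, covariates and array sets. The members and lists were chosen with earlier results of these data known.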

Additional observations from a re-analysis of the deposited data

How the results depend on the processing

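Counts are passing probe sets of the 18. For E13.5 females against E10.5 (2 as fitted), the count was 1 with 1 probe set per gene, 1 with a floor at the 25th percentile, 1 with no intensity trend, 0 with the compared arrays alone, and 0 to 2 with each array left out in turn. For E13.5 males against E10.5 (1 as fitted) it was 0 with 1 probe set per gene, which drops Hells 1430139_at, 0 with the compared arrays alone, and 1 to 3 with each array left out. In alternatives chosen after the data were seen, leaving out both E13.5 replicate 2 arrays gave 0 in both sexes, and leaving out replicate 2 of E10.5 and E11.5 gave 3 in males. Array weights gave 1 for males against females at E12.5 (0 as fitted), Hells 1453361_at, and E10.5 against E9.5 gave 0 to 1 with each array left out. All other settings kept the count within 1.5 times, but with the Gapdh covariate the females' 2 were Hells 1430139_at and Dnmt3b 1449052_a_at, and without E10.5 replicate 1 Hells 1430139_at and Uhrf1 1415810_at. Hells 1430139_at stayed higher at E13.5 than at E10.5 in every setting that held it, by 1.25 to 1.92 in males and 0.94 to 1.61 in females. Of 3075 single values under other settings, 0 changed sign with a pass on either side, and 219 changed sign without a pass. Replicate numbers were not taken to pair the samples: of 21 pairs of groups, 5 had replicate differences that correlated over 0.1, among them E13.5 males with females (0.602), E10.5 with E11.5 (0.556) and E12.5 males with females (0.296), and the lowest was -0.584. With the replicate number as a block the counts were 2 in females and 1 in males against E10.5, and 0 in the other 9 comparisons. Except where an alternative drops probe sets or arrays, the cause was not tested.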
